A study of Mus musculus with 3 samples.

Results

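The HoxC cluster on mouse chromosome 15 was described here from the 680 bins of 200 bp that cover it, of 12313737 bins in the whole table. Within the cluster the bins were taken by position: every bin from 10 kb outside Hoxc13 to 10 kb outside Hoxc4, on the gene spans of GRCm38.p6, of which mm10 is another name (chr15:102911001-103047000). The cluster itself was chosen with earlier results of these data known. The window holds the 9 Hoxc genes, the long noncoding RNA genes Hotair, Gm36878 and Gm29905 and the low-coordinate part of Gm30528, and the microRNA genes Mir196a-2 and Mir615.

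MBD-seq reads out DNA methylation by pulling down fragments that bind a methyl-CpG-binding protein and sequencing them, so coverage is high where methylated CpG sites lie close together. The proximal colon organoids came from male mice of about 40 days that carried 1 Braf allele which Cre switches to V600E, a form of the kinase that signals without its normal input. In the control (EV) the organoids had received the lentiviral backbone without Cre and grew in full medium with Wnt3a, R-spondin, Noggin and EGF. For the library called Braf full below, Cre had been delivered and the medium was the same. For the one called Braf Base, organoids with activated Braf had been selected to grow without niche factors (Base medium). Every culture was 5 months old and had then spent 3 weeks in the medium named. All titles carry the name BRAF3, but how many animals it stands for is not stated in the labels. With 1 library a group, the spread between cultures is unknown and nothing could be tested. No expression was measured in these libraries, so neither the cell type nor Braf activation could be checked by marker genes.

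Hox genes encode homeodomain transcription factors that set position along the body axis, and the order of the genes in a cluster follows the order in which they act, with Hoxc4 at the anterior and Hoxc13 at the posterior end. The clusters lie in DNA rich in CpG sites that is largely free of methylation in most healthy tissues and is held silent by Polycomb proteins where a Hox gene is not used. In tumours such Polycomb-held DNA often gains methylation. The genes of a cluster are read in the same direction, so the low-coordinate end of each Hoxc gene is called its start below. The gene table used gives no strand or exons. A start can also lie inside a span: the 1 listed for Hoxc4 is at chr15:103034395, and the low end of that gene is at 103018097. Starts inside the spans of the other Hoxc genes were not listed, so whether a block inside a gene lies at one could not be told.

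The sequence tables used here hold 1 of the 9 Hoxc promoters and both microRNAs of the cluster. The Hoxc4 promoter (RefSeq, GRCm38.p6, chr15:103034145-103034444, plus strand, 250 bases before to 50 after a start inside the Hoxc4 span) is shown because it is CpG-containing DNA of the anterior end, where no block was found. Capitals mark its 9 CpG sites, which read the same on both strands; 46.2% of 31396 promoters of the same length held at least as many. The 2 microRNA strands mark the stretches between Hoxc10 and Hoxc9 (Mir196a-2, chr15:102973350-102973434) and inside Hoxc5 (Mir615, chr15:103014910-103015001), with bases 2 to 8, the seed, in capitals.
Hoxc4: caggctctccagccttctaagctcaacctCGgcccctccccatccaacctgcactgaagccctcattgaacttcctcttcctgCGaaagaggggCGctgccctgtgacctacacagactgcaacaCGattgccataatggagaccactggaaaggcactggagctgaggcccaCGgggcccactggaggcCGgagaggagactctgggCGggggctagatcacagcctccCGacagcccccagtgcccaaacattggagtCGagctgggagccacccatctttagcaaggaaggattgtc
mmu-miR-196a-5p: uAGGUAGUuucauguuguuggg
mmu-miR-615-3p: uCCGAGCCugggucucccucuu

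Values are normalised coverage, the whole-number read overlaps of a bin times the authors' scale step for that library, averaged over the bins named. The libraries held an estimated 5041726 (EV), 8648828 (Braf full) and 5985362 reads (Braf Base), of which 144, 574 and 472 fell in the HoxC window. Intervals are exact 95% intervals on estimated reads (Clopper-Pearson for a ratio, Poisson for a level); they carry counting error and say nothing of the spread between cultures. In the tiles of 1 kb where no library reached the minimum for a call explained below, the mean over chromosomes 1 to 19 was 0.00584 in EV, 0.0412 in Braf full and 0.00622 in Braf Base. Braf full thus carried more coverage than the others in tiles of low coverage. In the HoxC window 592, 205 and 494 of the 680 bins had no overlap in EV, Braf full and Braf Base.

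The dense coverage of the cluster lay in 8 short blocks. A block is a run of at least 3 bins in which some library reached 0.298, which is 5 times the mean coverage per bin, with gaps of up to 2 bins bridged. The blocks are cut from the values themselves, so their number and height are a description. They took up 31 of the 680 bins and held 77.1% of the window's coverage in EV, 42.4% in Braf full and 79.8% in Braf Base. From the Hoxc13 end onward they lay at the start of Hoxc13, at the start of Hoxc12, 592 bp past the end of Hoxc12, 662 bp below the low-coordinate end of Hotair (called before Hotair), at the starts of Hoxc11 and Hoxc10, inside Hoxc9, and at the start of Hoxc8. The word before refers to coordinates: Hotair is read in the opposite direction, so that block lies past the end of Hotair and not at its start. No block lay in Hoxc6, Hoxc5 or Hoxc4. Of the 34 bins that reached 0.298 in some library, 12 did so in all 3 libraries, 9 in both Braf libraries only, 6 in Braf Base only and 4 in Braf full only; 2 did so in EV only and 1 in EV and Braf Base.

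**Figure D1:**
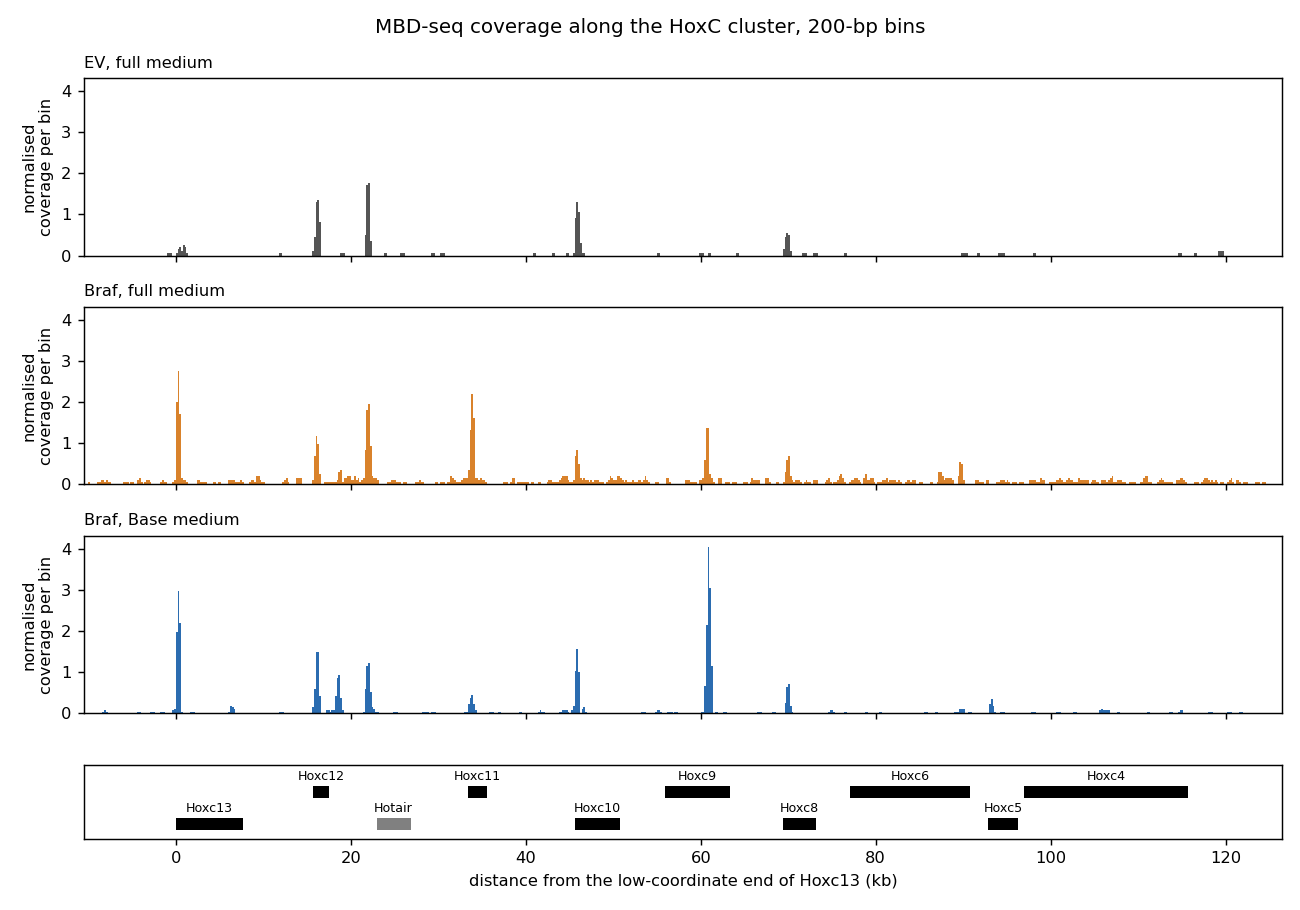
Normalised coverage of each 200-bp bin (vertical axis, same scale in the 3 panels) against the distance in kb from the low-coordinate end of Hoxc13, with gene spans in the lowest panel. EV coverage stands in 4 tall places, while both Braf libraries also rise at Hoxc13 (2.16 and 2.37 over the block) and inside Hoxc9 (0.745 and 2.21), and from Hoxc6 to Hoxc4 no bin exceeds 0.539 in any library.

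Against EV, 4 of the 8 blocks were higher in both Braf libraries and the other 4 were not changed by the size rule. The 4 higher blocks held no EV bin at the block cut and became blocks only through the Braf libraries. Their low EV level was thus in part set by the block rule. The ratios, intervals and medians given for them make no allowance for this. Higher or lower here means a log2 ratio of at least 1 or at most -1 after adding a pseudocount of 0.0597, the mean coverage per bin, with the higher library at 0.119 or more. Over chromosomes 1 to 19 the same rules gave 60595 blocks, of which 5.99% were gained and 10.3% lost in Braf full against EV, and 5.35% and 21% in Braf Base against EV. In the HoxC window 4 of 8 were gained and 0 lost in each of these comparisons, which share the EV library. The median log2 ratio of the 8 blocks was 1.08 for Braf full and 1.36 for Braf Base, beside -0.18 and -0.35 over all blocks. Each median of the 8 falls in the gap between the 4 unchanged and the 4 higher blocks and describes no single block. For Braf full the log2 ratios were -0.67 to 0.34 in the unchanged and 1.82 to 4.58 in the higher blocks.

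The block at the start of Hoxc13, a regulator of hair and nail formation, was higher with Braf in both media. Its mean coverage over chr15:102921001-102921600 was 0.134 in EV, 2.16 in Braf full and 2.37 in Braf Base. Braf full was thus 16.1-fold above EV (95% interval 5.65 to 87.0, with 3 estimated reads in EV) and Braf Base 17.7-fold (6.23 to 93.7), while the Braf libraries differed from each other by 1.10-fold (0.758 to 1.56). Both Braf libraries peaked in the same bin, the second of the block, at 2.74 and 2.96, where EV had 0.151. The low EV coverage here was spread further into the gene: its highest bin, 0.251, lay at chr15:102921801-102922000, outside the block, where Braf full had 0.0980 and Braf Base 0.

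Inside Hoxc9, which acts in the trunk and in motor neuron identity, coverage was lowest in EV, higher in Braf full and highest in Braf Base. The block chr15:102981401-102982400 begins 4369 bp past the low end of the gene, 338 bp beyond the span of Gm36878. It had 0.0201 in EV, 0.745 in Braf full and 2.21 in Braf Base, with 1, 31 and 120 estimated reads. Braf full was 37.1-fold above EV (95% interval 4.91 to 1200.0) and Braf Base 110.0-fold (15.6 to 3521). Braf Base was in turn 2.96-fold above Braf full (2.01 to 4.61). The difference between the Braf libraries was uneven along the block. In the first bin the Braf libraries had 0.588 and 0.667, whereas in the last bins they had 0.245 and 3.04, and 0.147 and 1.15. The highest bin of the whole window was here, 4.04 in Braf Base. The window at the low end of Hoxc9, within 1 kb of it, was low throughout, at 0.00913, 0.0356 and 0.0303.

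Between Hoxc12 and Hotair a block appeared that EV hardly held. Over chr15:102939201-102940000 EV had 0.0125, from 1 overlap, Braf full 0.196 and Braf Base 0.639. The ratio of Braf Base to EV was 50.9, with an interval from 5.23 and no upper limit, and that of Braf full to EV was 15.6, from 1.37 with no upper limit. Braf Base was 3.26-fold above Braf full (1.32 to 8.41). Braf full rested on 7 reads here, and its call against EV was lost with a pseudocount 4 times as large or a minimum raised to 5 times the mean.

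The block at the start of Hoxc11, a posterior gene of limb and trunk, was the 1 block of the 8 called lower in Braf Base than in Braf full. EV had no overlap in any of its 4 bins (chr15:102954401-102955200), Braf full had 1.37 and Braf Base 0.315. With EV set at a floor of 3 reads in the block, Braf full was at least 14.7-fold and Braf Base at least 3.37-fold higher; the exact 95% intervals of the ratios to EV begin lower, at 11.4 and 2.44, with no upper limit. Braf Base was 4.36-fold below Braf full (2.29 to 8.34). Every bin followed this order: the highest, the third, had 0, 2.20 and 0.445 in EV, Braf full and Braf Base. The fall was larger than counting error, and the spread between cultures was not measured.

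**Figure D2:**
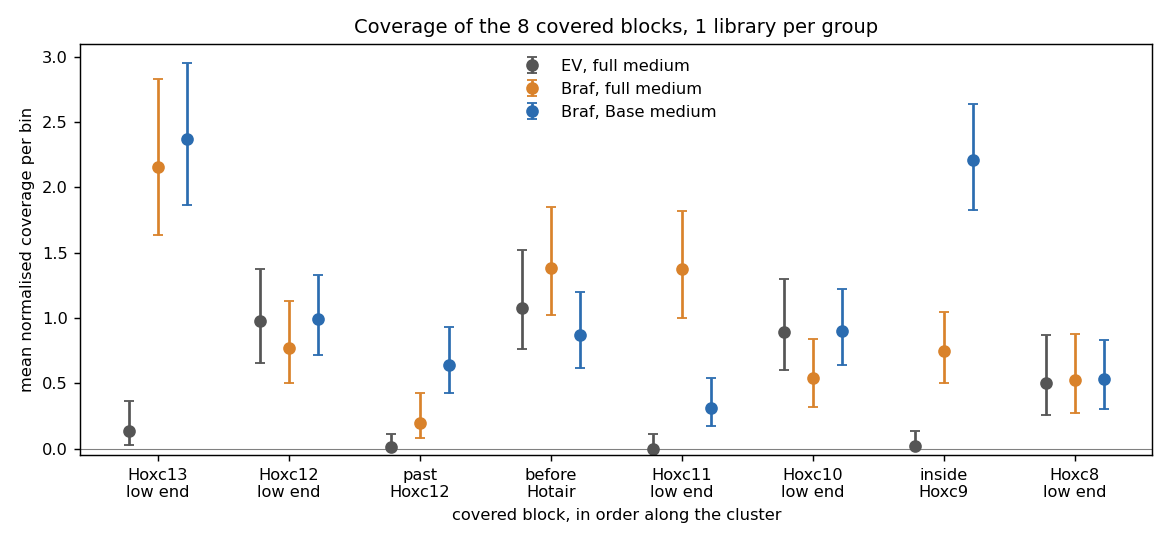
Mean normalised coverage of each of the 8 blocks (horizontal axis, in order along the cluster) in the 3 libraries; bars are exact 95% Poisson intervals on estimated reads and cover counting error only. The blocks at Hoxc13, past Hoxc12, at Hoxc11 and inside Hoxc9 are near 0 in EV (0 to 0.134), and at the other 4 the intervals of EV overlap those of both Braf libraries.

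The other 4 blocks were already covered in EV and, on the authors' scale, stayed within a 2-fold change in all 3 comparisons. At the start of Hoxc12 (chr15:102936801-102937600) coverage was 0.979 in EV, 0.772 in Braf full and 0.991 in Braf Base. Before Hotair, a noncoding RNA gene read in the direction opposite to the Hoxc genes (chr15:102942601-102943400), it was 1.08, 1.38 and 0.871. At the start of Hoxc10, a gene of the lumbar spinal cord and hindlimb (chr15:102966601-102967400), it was 0.891, 0.539 and 0.898. At the start of Hoxc8, which acts in the brachial and thoracic trunk (chr15:102990601-102991200), it was 0.502, 0.523 and 0.531. Their summits lay in the same or a neighbouring bin in the 3 libraries. Before Hotair and at Hoxc10 they shared a bin, with 1.76, 1.96 and 1.22, and 1.31, 0.833 and 1.56, in EV, Braf full and Braf Base. At Hoxc12 the highest bins had 1.36, 1.18 and 1.48, and at Hoxc8 0.552, 0.686 and 0.704. All 15 bins that reached 0.298 in EV lay in these 4 blocks.

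Their ratios had intervals that mostly spanned 1. Braf full over EV was 0.788 at Hoxc12 (0.454 to 1.39), 1.28 before Hotair (0.806 to 2.04), 0.605 at Hoxc10 (0.308 to 1.10) and 1.04 at Hoxc8 (0.433 to 2.47). Braf Base over EV was 1.01 at Hoxc12 (0.629 to 1.68), 0.807 before Hotair (0.492 to 1.30), 1.01 at Hoxc10 (0.597 to 1.66) and 1.06 at Hoxc8 (0.470 to 2.40). A 2-fold difference is not excluded by them: at Hoxc8, with 12, 13 and 17 reads, the upper limit for Braf full was 2.47-fold. Braf Base over Braf full was below 1 before Hotair (0.629, 0.398 to 0.983), short of the 2-fold rule. Scaling the libraries to equal totals put Hoxc10 past the rule as lower in Braf full than in EV (log2 ratio -1.30), and put Hoxc12, Hoxc10 and Hoxc13 past it as higher in Base than in full medium (1.17, 1.50 and 1.01). Scaling to equal medians of covered tiles also put Hoxc12 and Hoxc10 past it as higher in Base than in full medium.

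**Figure D3:**
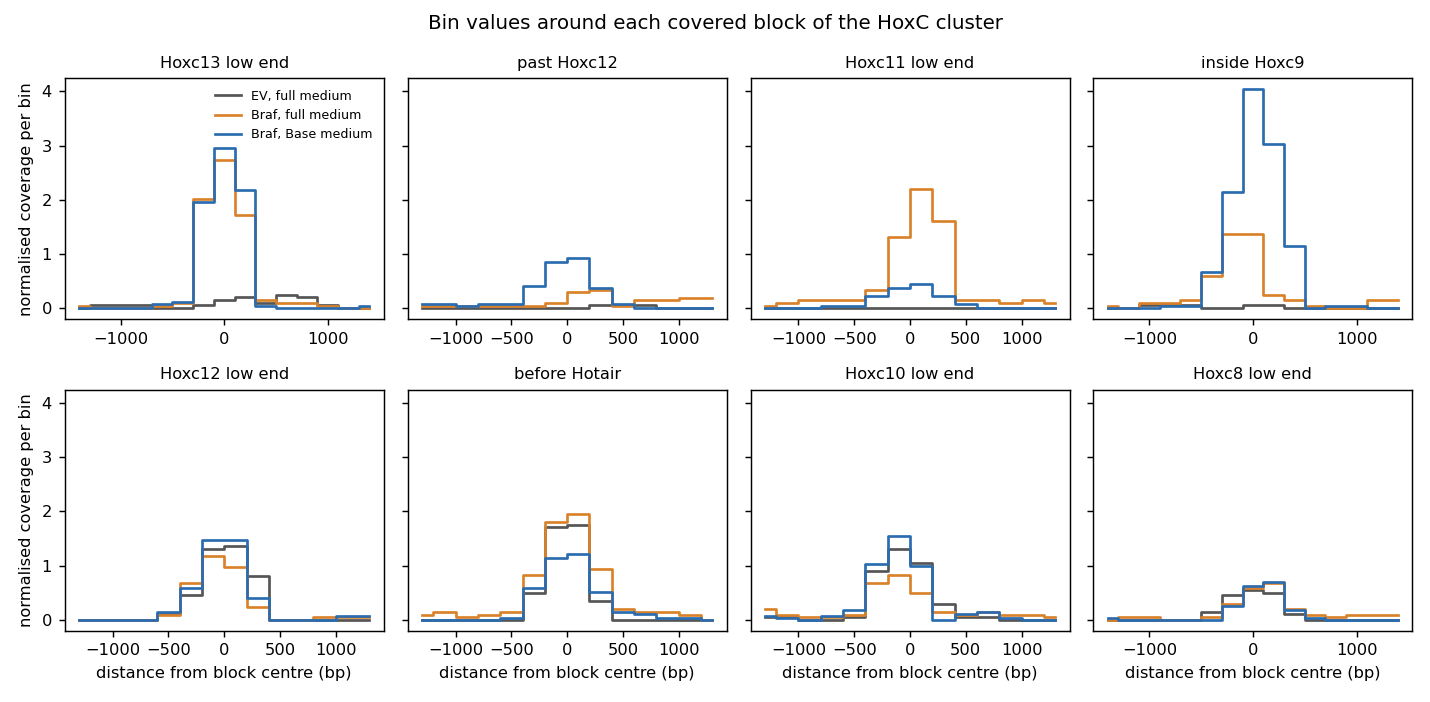
Bin values of the 3 libraries (vertical axis, normalised coverage per 200-bp bin) against the distance in bp from the centre of each block; the upper row holds the 4 blocks gained over EV and the lower row the other 4. The Braf libraries are close at Hoxc13, Braf Base exceeds Braf full inside Hoxc9 (4.04 against 1.37 in the middle bin), and the order is the opposite at Hoxc11.

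Between the Braf libraries, 2 of the 8 blocks were gained in Base medium (past Hoxc12 and inside Hoxc9) and 1 was lost (Hoxc11); of all blocks 3.1% were gained and 11.1% lost. The median log2 ratio of the 8 was 0.24, beside -0.17 over all blocks.

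Gene by gene, coverage at the ends of the Hoxc genes followed the blocks. Windows that overlap a block count the same reads, so the ends give no separate support for the blocks. The low and the high end of each gene, each with 1 kb around it on either side, gave 18 ends. In Braf full against EV 2 of the 18 were gained, beside 4.64% of 41330 ends of all protein-coding genes, and 0 were lost, beside 0.602%. They were the starts of Hoxc13 (0.100 in EV, 0.633 in Braf full, 0.667 in Braf Base) and Hoxc11 (0, 0.579 and 0.128). In Braf Base against EV 3 were gained, beside 3.23%, the third being the far end of Hoxc12 (0, 0.0668 and 0.229), whose window takes in most of the block past that gene; 0 were lost, beside 1.4%. In Braf Base against Braf full the far end of Hoxc12 was gained and the start of Hoxc11 lost, where 1.03% of all ends were gained and 2.94% lost. Of the other 15 ends, the starts of Hoxc12, Hoxc10 and Hoxc8 had coverage in all 3 libraries, between 0.160 and 0.384, and the remaining 12 stood at 0 to 0.111. The median log2 ratio of the 18 ends was 0.63, -0.56 and 0.04 for Braf full over EV, Base over full medium and Braf Base over EV, close to the 0.66, -0.61 and 0.00 of all ends.

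The anterior genes held no block, and their coverage was low in EV and Braf Base and higher in Braf full. Hoxc6, active in the lower neck and upper trunk, had a mean over its whole span of 0.00291 in EV, 0.0916 in Braf full and 0.0118 in Braf Base. Hoxc5 had 0.0112, 0.0436 and 0.0494, and Hoxc4 0.00211, 0.0696 and 0.0125. Braf full was 31.5-fold above EV over Hoxc6 (95% interval 6.63 to 213) and 32.9-fold over Hoxc4 (7.03 to 225), from 2 estimated reads in EV over each gene, and neither mean reached the minimum for a call. The mean of Braf full over all bins of the table was 0.0832, which Hoxc6 exceeded and Hoxc4 and Hoxc5 did not. At the Hoxc4 promoter printed above, the 3 bins held 0 overlaps in EV, 3 in Braf full and 0 in Braf Base, and the windows within 1 kb of that start had 0, 0.0579 and 0.00674. Of 5770 promoters whose number of CpG sites was within 3 of it, 18.6%, 24.5% and 18.5% reached 0.119 in the same windows in EV, Braf full and Braf Base. Within 1 kb of Mir196a-2, whose product represses Hoxb8 and other Hox transcripts, coverage was 0, 0.0694 and 0.00617. Around Mir615 it was 0.0167, 0.0531 and 0.0741, in a window that takes in the start of Hoxc5. The 2 bins of the Mir615 gene itself held 1 overlap in EV, 2 in Braf full and 0 in Braf Base. The noncoding genes also held no block. Over its span Hotair had 0.0125, 0.0367 and 0.00741 in EV, Braf full and Braf Base. Gm36878 had 0.0251, 0.0612 and 0.00926, Gm29905 0.0201, 0.0490 and 0.0148, and Gm30528, up to the edge of the window, 0.00497, 0.0553 and 0.0110. The margins beyond Hoxc13 and Hoxc4 had 0.00301, 0.0363 and 0.0126, and 0.00803, 0.0421 and 0.00593. In all of these except Hoxc5 and the window around Mir615, which share bins, Braf full was the highest, as it was in uncovered tiles across the genome.

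Short runs of higher bins were present at the anterior end, each short of the block rule. At the start of Hoxc5, in the 3 bins of chr15:103014001-103014600, EV and Braf full had no overlap and Braf Base had 0.222, 0.333 and 0.185. In the last part of Hoxc6 the bins of chr15:103010601-103011000 reached 0.539 and 0.490 in Braf full, with 0.111 in both bins in Braf Base and 0 and 0.0502 in EV. Counted in bins that reached 3 times the mean, the cluster had 13 blocks, and these were among the 5 added; at 10 times the mean it had 6. The span from Hoxc13 to Hoxc9 held means of 0.0455, 0.139 and 0.117 in EV, Braf full and Braf Base, and that from Hoxc8 to Hoxc4 held 0.0123, 0.0791 and 0.0215. Braf full was 3.07-fold above EV over the first (2.48 to 3.80) and 6.44-fold over the second (4.11 to 10.4), and Braf Base 2.58-fold (2.09 to 3.19) and 1.75-fold (1.04 to 2.95). The part of the raised coverage of Braf full in uncovered tiles in these ratios was not tested.

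In tiles of 1 kb, a cut that does not follow the values, the cluster had 136 tiles, 22 of which reached the minimum in some library. In Braf full against EV 12 tiles were gained and 0 lost, where 2.82% and 0.354% of all tiles of chromosomes 1 to 19 were. Among tiles in which some library reached the minimum, 54.5% of those in the cluster and 35.6% of all were gained, and 0 in the cluster and 4.48% of all were lost. Of the 12, 5 overlapped a block; the other 7, of which 3 lie in Hoxc6, stood at only 0.127 to 0.245 in Braf full. In Braf Base against EV 6 tiles were gained and 0 lost, beside 0.249% and 0.984% of all tiles; among tiles at the minimum the shares of all were 3.15% and 12.4%. Of the 6, 5 overlapped a block and the last lay at the start of Hoxc5. In Braf Base against Braf full 3 were gained and 8 lost, beside 0.11% and 3.13% of all tiles; among tiles at the minimum, 13.6% were gained and 36.4% lost in the cluster, beside 1.39% and 39.6% of all. Of the 8 lost tiles 6 lay outside the blocks.

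Coverage between the covered places was highest in Braf full, as it was elsewhere in the genome. Over the 649 bins outside the blocks it was 0.00634 in EV, 0.0604 in Braf full and 0.0135 in Braf Base. Braf full was there 9.52-fold above EV (95% interval 6.65 to 14.1), more than the 2.08-fold (1.65 to 2.63) inside the blocks. Braf Base was 2.13-fold above EV outside the blocks (1.43 to 3.29) and 2.50-fold inside (2.01 to 3.11). In the 114 tiles of the cluster in which no library reached the minimum, the means were 0.00511, 0.0527 and 0.00981, beside 0.00778, 0.0499 and 0.00778 on chromosome 15 within 1 Mb. The part of this background in the 7 gained tiles outside the blocks was not tested; with the chromosome 15 background subtracted, 6 tiles in place of 12 were gained in Braf full against EV, and the same 4 blocks stayed gained.

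**Figure D4:**
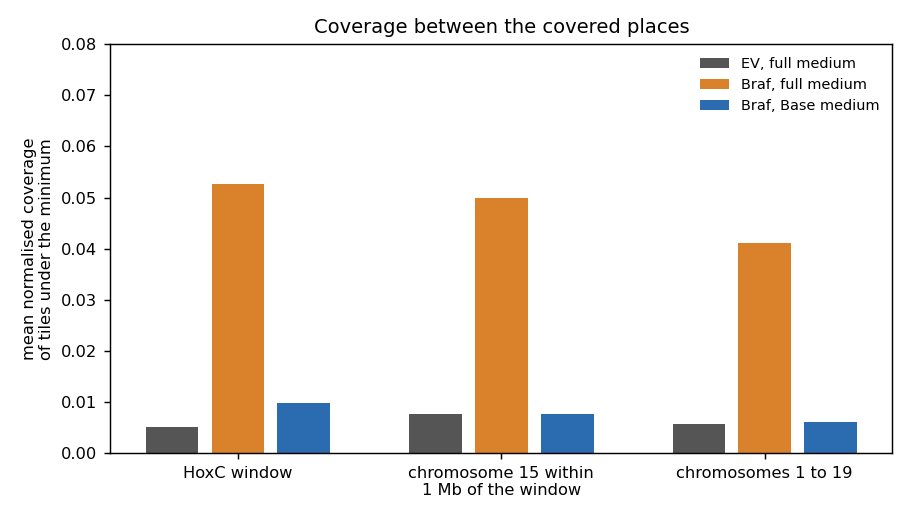
Mean normalised coverage (vertical axis) of 1-kb tiles in which no library reached 0.119, for the HoxC window, chromosome 15 within 1 Mb of it and chromosomes 1 to 19; bars stand for the 3 libraries. Braf full is the highest in each place (0.0527, 0.0499 and 0.0412).

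Over the whole window the mean coverage was 0.0264 in EV, 0.100 in Braf full and 0.0638 in Braf Base, which was 0.517, 1.20 and 1.43 times the mean of all bins of the same library. The log2 ratio with pseudocount was 0.89 for Braf full over EV, -0.37 for Base over full medium and 0.52 for Braf Base over EV. The sign of the value between the Braf libraries turned with scaling to equal totals (0.14), with equal medians of covered tiles (0.13) and with the chromosome 15 background subtracted (0.08). The other Hox clusters, cut in the same way, had higher means. HoxA had 0.328, 0.384 and 0.466 in EV, Braf full and Braf Base, HoxB 0.181, 0.199 and 0.138, and HoxD 0.259, 0.230 and 0.296. The ratio of Braf full to EV was 3.78 in HoxC (95% interval 3.15 to 4.58), against 1.17, 1.10 and 0.890 in HoxA, HoxB and HoxD, and that of Braf Base to EV was 2.41 (2.0 to 2.93), against 1.42, 0.763 and 1.14. No background was subtracted from these ratios. In HoxC 800 of the 1388 overlaps of Braf full lay outside the blocks, where it was 9.52-fold above EV, beside 2.08-fold inside them. The part of the raised background of Braf full in the difference between clusters was not tested. Blocks gained against EV were seen in every cluster. In full and Base medium they were 4 and 4 of 8 in HoxC and 6 and 7 of 18 in HoxA. In HoxB they were 1 and 1 of 9, and in HoxD 7 and 8 of 16. In the same order, HoxA lost 0 and 1 blocks, HoxB 1 and 4, and HoxD 5 and 5. In HoxC none was lost on the authors' scale, beside 10.3% and 21% of all blocks. With equal totals 1 HoxC block was lost in Braf full against EV. With 1 library a group the difference between clusters could not be tested.

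Among the other 30 Hox genes, 7 were gained and 2 lost in Braf full against EV, and 9 gained and 5 lost in Braf Base against EV, beside 8.55% gained and 1.13% lost, and 6.19% and 2.61%, of all protein-coding genes; of the 9 Hoxc genes 2 and 3 were gained. Of 9 genes for Hox cofactors of the Pbx, Meis and Pknox families, 1 was gained in each comparison with EV, at the high end of the gene: Pbx3 in Braf full (0 in EV, 0.249 in Braf full, 0.00674 in Braf Base) and Meis1 in Braf Base (0.0137, 0.0445 and 0.152). Of 16 genes of the Polycomb and Trithorax groups, which keep Hox clusters silent or active, Cbx8 was gained against EV in both (0.520, 1.37 and 1.62) and Cbx7 was lost in both (0.338, 0.111 and 0.0606).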

How the data were processed

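MBD-seq of 3 organoid libraries, 1 per group, was analysed. Values in the authors' table are on a log2 scale, with 1 per library for each 200-bp bin of chromosomes 1 to 19. The submitters' processing notes name Bowtie2 and mm10; how bins were filled and scaled is not stated there. On the linear scale every value was 0.0153, the same in each library, plus a multiple of a library's step (tolerance 0.05 of a step). The step was 0.0502 in EV, 0.0490 in Braf full and 0.0370 in Braf Base. Multiples were taken as read overlaps, and divided by 2.49, 2.42 and 2.48 bins per lone read to estimate reads. Lower bounds use 3 reads. Genes came from a RefSeq table (GRCm38.p6), matching 9 of 9 Hoxc genes. By the rule for names, all Hoxc and other genes of the window, all blocks and at most 4 called genes with the largest ratio in each of 3 lists were named. The members and lists were chosen with earlier results of these data known. The code for calls and blocks was checked on simulated libraries with known changes; no value printed comes from them. Python 3.11.15, numpy 2.4.6, pandas 2.3.3 and scipy 1.17.1 were used. Alternatives covered scaling, background, pseudocount, minimum, tile cut, margin and window width.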

Additional observations from a re-analysis of the deposited data

How the results depend on the processing

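With 1 library per group no replicate could be left out. No paired analysis was possible because each group holds 1 library and no result comes from a test. Relative to EV, equal totals shift log2 coverage by -0.70 in Braf full and 0.19 in Braf Base, and equal medians of covered tiles by -0.23 and 0.64. The 4 blocks gained in Braf Base against EV and the 1 block lost in Base against full medium were the same under all 6 alternatives run on blocks. In Braf full against EV the block past Hoxc12 was not called with 5 times the mean as minimum or the larger pseudocount. No called block or gene end changed sign. Counts in bins at 3 times the mean, chosen after seeing the data, gave 13 blocks in place of 8. Tiles gained in Braf full against EV, 12, became 6 with chromosome 15 background subtracted, 4 with the pseudocount 4 times as large, 4 with the minimum at 5 times the mean and 7 in 2-kb tiles; 1 tile and 1 block were lost with equal totals. In Base against full medium, tiles gained, 3, became 7 with equal totals or equal medians and 1 with the larger pseudocount, and tiles lost, 8, became 2 with equal totals, equal medians, the larger pseudocount or the higher minimum, and 4 with either background subtracted or in 2-kb tiles. Blocks gained there, 2, became 5 with equal totals and 4 with equal medians. Gene ends gained there, 1, became 3 with equal totals or equal medians and 0 with the larger pseudocount, the higher minimum or windows of 500 bp, where 2 ends were lost. In Base medium against EV, gene ends gained, 3, became 1 with the larger pseudocount or the higher minimum, and 1 tile was lost with tiles shifted by 600 bp. The log2 ratio of the whole window for Braf full over EV was 0.54 with equal totals, 0.73 with equal medians, 0.56 with background subtracted, 0.49 with chromosome 15 background subtracted and 0.35 with the larger pseudocount. For Base over full medium these were 0.14, 0.13, -0.015, 0.075 and -0.16, and for Braf Base over EV 0.68 and 0.86 with equal totals and equal medians and 0.19 with the larger pseudocount. The cause of these shifts was not tested. Depth limits the window most in EV, with 33 estimated reads outside the blocks.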
